A study of Mus musculus with 12 samples.

Results

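The F4/80lo and F4/80hi macrophages (Mϕ) of vehicle-treated mice were compared at day 6 of zymosan-induced peritonitis, a self-limiting inflammation of the peritoneal cavity started by a yeast cell wall preparation. The comparison used every VEH library of the study, 3 of F4/80lo and 3 of F4/80hi Mϕ, which is 6 of its 12 libraries. All mice were female C57BL/6 mice of 8 to 12 weeks. They received zymosan A at 5 mg/kg intraperitoneally and, from day 1 on, daily intraperitoneal vehicle (VEH, a solution of Tween-80, carboxymethyl-cellulose and NaCl). The other 6 libraries came from mice that received CIII, an inhibitor of the prostaglandin E synthase mPGES-1, in place of vehicle, and enter only where named.

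Both Mϕ subpopulations were sorted from peritoneal lavage as CD45+ CD11b+ cells. F4/80lo Mϕ were taken as low for F4/80 and MerTK and high for MHC class II, F4/80hi Mϕ as high for F4/80 and MerTK. The flow cytometric gating set CD11c+ MHC class II+ dendritic cells and Ly6G+ neutrophils apart. The genes of these surface proteins (Adgre1, Mertk, Itgam, Ptprc and the MHC class II genes) were therefore used to choose the cells, and their transcript levels check the sort. The sources used here describe neither pooling of mice nor how the replicate numbers 1 to 3 were assigned. The p-values accordingly measure the spread between these libraries. Where the replicate number is taken into account below, they measure the spread of the differences within replicate numbers.

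As background, the peritoneal cavity holds a large, long-lived resident Mϕ population that is high for F4/80, depends on the transcription factor GATA6 and clears dying cells. It also holds a smaller, short-lived population that is low for F4/80, high for MHC class II and is replenished from CCR2+ blood monocytes. Inflammation depletes the resident cells from the lavage fluid and draws in monocytes, and during resolution both kinds of Mϕ are recovered side by side. CX3CR1 and CCR2 are chemokine receptors of monocytes and their progeny, and TIM-4 (Timd4) is a phosphatidylserine receptor of long-resident Mϕ.

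The libraries held 691665 to 3389448 reads on genes, so that 3 reads, the limit that a count of 0 allows, corresponded to 0.885 to 4.34 CPM. CPM here is the read count of a gene scaled to a common library size after TMM normalisation, and since each transcript is read at its 3′ end it is not divided by gene length. These limits cover counting error only. Both libraries with replicate number 3 stood apart from the other 4. Principal component 1, with 54.2% of the variance, separated number 3 from numbers 1 and 2 in both subpopulations, and component 2, with 18% of the variance, placed the 3 F4/80lo libraries (-2.24 to 67.6) above the 3 F4/80hi libraries (-39.7 to -22.2). Gm42418, a gene model that takes up ribosomal RNA reads, held 14.3% of the reads of F4/80lo number 3 and 7.82% of F4/80hi number 3, against at most 0.349% in the other 4 libraries. Both number 3 libraries also held more of the blood monocyte transcripts Ly6c2 and Plac8 than numbers 1 and 2. Ly6c2 stood at 25.7, 22.1 and 232 CPM in F4/80lo numbers 1, 2 and 3 and at 4.04, 2.71 and 387 CPM in F4/80hi Mϕ. Plac8 stood at 35.8, 9.83 and 233 CPM and 5.39, 2.71 and 288 CPM. The part of these features in the differences below was not tested, and the counts of calls and the leading genes are given with and without number 3.

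**Figure D1:**
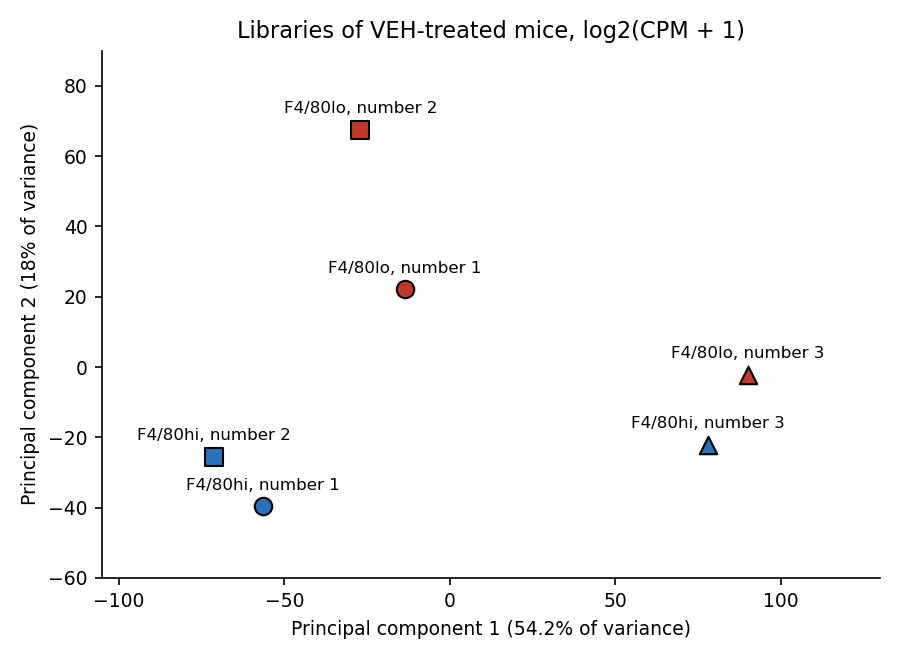
Principal components 1 (54.2% of variance) and 2 (18% of variance) of log2(CPM + 1) over the 9883 tested genes. Each point is 1 VEH library, with F4/80lo Mϕ in red and F4/80hi Mϕ in blue, and the symbol gives the replicate number. Both number 3 libraries lie on the right, at 90.2 and 78.1 on component 1, and the other 4 libraries below 0.

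The test of the contrast depended on whether the replicate number was taken into account. Limma on log2(CPM + 1) without a block called 0 of 9883 genes (0%) at an adjusted p under 0.05, with 387 genes at an unadjusted p under 0.05 and a smallest adjusted p of 0.970. Libraries of the same number deviated together from the means of their subpopulations, with correlations of 0.446, 0.422 and 0.716 across genes for numbers 1, 2 and 3. Libraries of different numbers reached at most 0.236. Deviations from the mean of a subpopulation sum to 0, which lowers the correlations between different numbers. Numbers 1 and 2 crosswise gave 0.2363 and 0.2355, so they were told apart less clearly than number 3. With the number as a block, 128 genes (1.30%) were called, 69 higher in F4/80lo Mϕ (0.698%) and 59 higher in F4/80hi Mϕ (0.597%). Called below means an adjusted p under 0.05 in this blocked fit, and a difference is log2(CPM + 1) in F4/80lo minus F4/80hi Mϕ, with its standard error from that fit. The blocked fit calls genes whose pairs agree, so the next 2 counts follow in part from that choice and support nothing. Of the 128 genes, 127, all but H2-DMb1, differed in the same direction in each of the 3 pairs (38.6% of all tested genes), and the 2 subpopulations did not overlap in 59 of them (10.3% of all tested genes). An exact permutation test of a single gene with 3 against 3 libraries cannot go below 0.1 and was not used to call genes.

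The calls rested on few libraries. Without both libraries of number 1 the blocked fit called 0 genes (892 at an unadjusted p under 0.05), without number 2 it called 322, and without number 3 it called 556. Each of these fits has 1 residual degree of freedom per gene. With numbers 1 and 2 alone and no block, 84 of 9829 genes (0.855%) passed, 43 higher in F4/80lo and 41 higher in F4/80hi Mϕ. These 84 shared 56 genes with the 128, which is 66.7% of the former and 43.8% of the latter. EdgeR's quasi-likelihood test with the block called 191 genes, among them 125 of the 128. With the filter lowered to a mean of at least 1 CPM, limma with the block called 15 genes, among them Alox15, Cd74, Grk3, H2-Eb1, Marco, Pf4, Prg4, Rab32, Saa3, Serpinb2, Slpi and Txn1. Of the called genes named here, Arl10, Ciita, Fabp5, Gsto1, Hpse, Igf1, Mdh1, Mx1, Nfkb1, Pla2g16, Rnaset2a, S100a8, Sec61b, Tuba1b, Txn1 and Uqcrb were not called with numbers 1 and 2 alone (adjusted p of 0.0727 to 0.383, limma without a block). When 1 library at a time was left out of the fit without a block, 24 of 54 named genes called with the block changed their difference by over 1.5 times, 18 of them without F4/80hi number 3 and 13 without F4/80lo number 3. Their lowest and highest such values, where past that factor, are given with the genes. With the block, leaving out 1 number changed 5 of the 54 by as much (H2-Aa, H2-DMb1, Napsa, Retnla and Selp). In bulk libraries, fewer cells of a type and less RNA per cell cannot be told apart, which holds for every difference given here.

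The 6 subpopulation markers followed the sort labels in numbers 1 and 2. Adgre1, which encodes F4/80 (chr17:57358691-57483527, plus strand), stood at 258, 203 and 290.0 CPM in F4/80lo numbers 1, 2 and 3 and at 1039, 1252 and 422 CPM in F4/80hi Mϕ, so that the groups did not overlap. Its difference was -1.72 ± 0.32 (SE, n = 3 per group, adjusted p = 0.0224, limma with the replicate block). Mertk, the apoptotic cell receptor used in the same gate, did not follow it. Mertk stood at 187, 168 and 249 CPM in F4/80lo and 177, 255 and 195 CPM in F4/80hi Mϕ (difference -0.05 ± 0.25, adjusted p = 0.942, limma), with overlapping groups and a sign that changed when number 2 was left out.

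Timd4 and Gata6, the markers of the resident lineage, were not called. Timd4 stood at 119.6, 131 and 89.2 CPM in F4/80lo and 232, 343 and 90.9 CPM in F4/80hi Mϕ (difference -0.78 ± 0.27, adjusted p = 0.165, limma). In numbers 1 and 2 it was higher in F4/80hi Mϕ, whereas both number 3 libraries lay near 90 CPM. Gata6 had 7, 2 and 1 reads in F4/80lo and 25, 36 and 2 reads in F4/80hi Mϕ, with a difference of -2.36 ± 0.70 (adjusted p = 0.108, limma). F4/80lo numbers 2 and 3 and F4/80hi number 3 lay under the 3-read limit, so that the groups overlapped. Other blocked fits called Gata6, namely edgeR (adjusted p = 0.0446), limma voom (adjusted p = 0.0440) and limma without number 3 (difference -2.92, adjusted p = 0.00265). The last of these also called Timd4 (difference -1.15, adjusted p = 0.00243) and has 1 residual degree of freedom per gene.

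Ccr2, Cx3cr1 and H2-Aa were higher in F4/80lo Mϕ. Ccr2 (chr9:124101950-124113557, plus strand) stood at 878, 384 and 1610.0 CPM in F4/80lo and 51.2, 19.0 and 1379.9 CPM in F4/80hi Mϕ (difference 2.86 ± 0.53, adjusted p = 0.0224, limma). The groups overlapped because of F4/80hi number 3, and the differences of the 3 pairs were 4.07, 4.27 and 0.22. Without a block, the Ccr2 difference was 1.61 without F4/80hi number 2 and 4.68 without F4/80hi number 3. Cx3cr1 (chr9:119901616-120069879, minus strand) stood at 253, 303 and 111 CPM in F4/80lo and 17.5, 13.5 and 77.8 CPM in F4/80hi Mϕ, without overlap (difference 2.89 ± 0.51, adjusted p = 0.0219, limma). The Cx3cr1 differences of pairs 1, 2 and 3 were 3.78, 4.39 and 0.51.

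DESeq2 with the block did not call Ccr2, Cx3cr1 or H2-Aa (adjusted p = 0.0715, 0.0594 and 0.139). Limma with the block and a mean of at least 1 CPM did not call Adgre1, Ccr2, Cx3cr1 or H2-Aa either (adjusted p = 0.0655, 0.0655, 0.0626 and 0.0904). Without the number 3 libraries the marker differences were larger. In numbers 1 and 2 alone, without a block, Adgre1 differed by -2.30 (adjusted p = 0.00529, limma), Timd4 by -1.15 (adjusted p = 0.200, limma) and Gata6 by -2.92 (adjusted p = 0.0843, limma). Ccr2 differed by 4.19 (adjusted p = 0.000770, limma), Cx3cr1 by 4.10 (adjusted p = 0.000335, limma) and H2-Aa by 3.41 (adjusted p = 0.00155, limma).

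**Figure D2:**
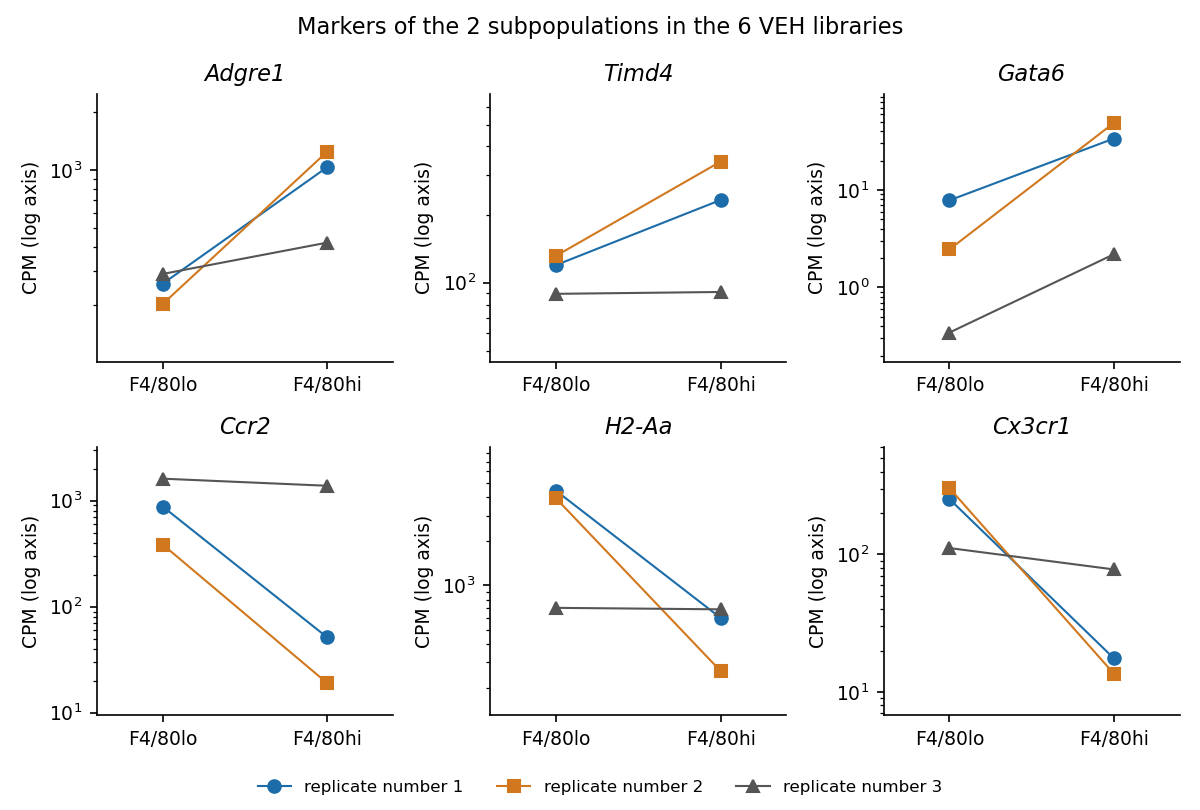
CPM on a log axis of the 6 subpopulation markers in F4/80lo and F4/80hi Mϕ of VEH-treated mice. Each line joins the libraries of 1 replicate number. Numbers 1 and 2 differ in the direction of their sort label for all 6 genes, while the number 3 lines are nearly flat for Timd4 (89.2 and 90.9 CPM), H2-Aa (703 and 687 CPM) and Ccr2 (1610.0 and 1379.9 CPM).

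Among the other sort and gate genes, Itgam, the gene of CD11b, stood at 3091, 2411 and 1912 CPM in F4/80lo and 7926, 6143 and 2570.4 CPM in F4/80hi Mϕ and was not called (adjusted p = 0.144, limma). Ptprc, the gene of CD45, stood at 319.7, 289 and 1348 CPM and 138, 195 and 835 CPM and was not called either (adjusted p = 0.0946, limma). Itgax, the gene of CD11c, stood at 36.9, 113 and 2.41 CPM in F4/80lo and 8.09, 4.06 and 1.10 CPM in F4/80hi Mϕ (adjusted p = 0.0988, limma). With the block, limma voom called Itgam, Ptprc and Itgax (adjusted p = 0.0111, 0.0476 and 0.0148), DESeq2 called Itgam (adjusted p = 0.00173) and edgeR called Itgax (adjusted p = 0.0145). In numbers 1 and 2 alone, limma without a block called Itgax (adjusted p = 0.0353). Ly6g, the neutrophil gate gene, had 1 read in all 6 libraries.

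Genes of resident large peritoneal Mϕ were called in 1 direction only, higher in F4/80hi Mϕ. Of 26 listed genes, 25 were tested, 11 were called higher in F4/80hi Mϕ (44%, against 0.597% of all tested genes), 0 higher in F4/80lo Mϕ and 14 were not called. At an unadjusted p under 0.05, 18 of the 25 were higher in F4/80hi Mϕ, against 6.76% of all tested genes. The median difference of the list was -1.74, against 0.07 over all tested genes, and the medians within pairs 1, 2 and 3 were -1.92, -2.85 and -0.85. With numbers 1 and 2 alone and no block, 12 were called higher in F4/80hi Mϕ. Gata6 and Vsig4 lay below the filter of 5 CPM in F4/80lo Mϕ and passed it through F4/80hi Mϕ, so they had to differ. The list was chosen with earlier results of these data known.

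Prg4, which encodes the lubricating proteoglycan lubricin (chr1:150449412-150466165, minus strand), stood at 153, 88.4 and 14.8 CPM in F4/80lo and 857, 739.8 and 54.8 CPM in F4/80hi Mϕ. Every pair showed the higher value in F4/80hi Mϕ, although F4/80hi number 3 lay below F4/80lo numbers 1 and 2 (difference -2.45 ± 0.27, adjusted p = 0.000522, limma). Alox15, the 12/15-lipoxygenase that forms precursors of pro-resolving lipid mediators (chr11:70344152-70352031, minus strand), stood at 134, 90.9 and 9.64 CPM and 938, 1409 and 29.6 CPM. Its difference was -2.75 ± 0.35 (adjusted p = 0.00238, limma), and the pairs differed by -2.80, -3.94 and -1.52. Without a block, leaving out F4/80lo number 3 or F4/80hi number 3 gave -1.47 or -3.71 for Prg4 and -1.61 or -4.49 for Alox15.

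Serpinb2, an inhibitor of plasminogen activators, stood at 76.0, 77.4 and 2.41 CPM in F4/80lo and 297, 1467 and 11.0 CPM in F4/80hi Mϕ (adjusted p = 0.00882, limma). F5, which encodes coagulation factor V, stood at 161, 101 and 11.7 CPM and 453, 603 and 23.0 CPM (adjusted p = 0.0219, limma). Each was lowest in number 3 of either subpopulation, with the pair still in the same direction. Without a block, leaving out F4/80hi number 3 gave -4.58 for Serpinb2 and -3.13 for F5. The values nearest to 0 were -1.12 for Serpinb2, without F4/80hi number 2, and -0.53 for F5, without F4/80lo number 3. Saa3, an acute phase apolipoprotein, was the only called member without overlap, at 699, 474 and 973 CPM in F4/80lo and 2888, 4007 and 2287 CPM in F4/80hi Mϕ (difference -2.12 ± 0.33, adjusted p = 0.00984, limma).

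Several of the called resident genes encode surface receptors and adhesion molecules. The scavenger receptor gene Marco stood at 167, 359.9 and 91.3 CPM in F4/80lo and 739, 2336 and 165 CPM in F4/80hi Mϕ (difference -1.90 ± 0.30, adjusted p = 0.0108, limma). The integrin α6 gene Itga6 stood at 73.8, 34.4 and 24.1 CPM and 537, 541 and 41.6 CPM (adjusted p = 0.0160, limma). The adhesion genes Selp (P-selectin) and Icam2 had adjusted p of 0.0423 and 0.0451 (limma), with pair differences of -2.26, -3.43 and -0.34 for Selp and -2.43, -2.28 and -0.21 for Icam2. For both, pair 3 was the smallest. Without a block, leaving out F4/80hi number 3 gave -2.88 for Marco, -3.46 for Selp and -2.84 for Icam2. Leaving out F4/80hi number 2 gave -0.98 for Marco and -1.23 for Selp, and leaving out F4/80hi number 1 gave -0.91 for Icam2. With the block and without number 2, Selp differed by -1.30.

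In numbers 1 and 2 alone, without a block, Prg4 differed by -2.75 (adjusted p = 0.00184, limma), Alox15 by -3.36 (adjusted p = 0.000599, limma) and Saa3 by -2.55 (adjusted p = 0.00652, limma). Icam2 and Selp differed by -2.35 and -2.84 (adjusted p = 0.00583 and 0.00394, limma).

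Vsig4, which encodes a complement receptor of resident Mϕ, had 1, 6 and 0 reads in F4/80lo and 37, 65 and 2 reads in F4/80hi Mϕ (difference -3.22 ± 0.71, adjusted p = 0.0408, limma). Its level in number 3 was at or under the 3-read limit in both subpopulations. Tgfb2, a transforming growth factor, stood at 22.4, 24.6 and 4.48 CPM and 87.6, 253 and 11.0 CPM (adjusted p = 0.0326, limma), with a difference of -2.12 that became -1.13 without F4/80hi number 2 and -3.33 without F4/80hi number 3 in the fit without a block. Of the 14 members that were not called, Aspa, Fcna, Garnl3, Gata6, Ltbp1, Lyve1 and Timd4 had an unadjusted p under 0.05 and the same direction, and Cd93, Cxcl13, F10, Fn1, Naip1, Rarb and Thbs1 did not reach it.

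Genes of monocyte-derived and small peritoneal Mϕ were called mostly in the other direction. Of 20 listed genes, 19 were tested, 7 were called higher in F4/80lo Mϕ (Cx3cr1, Ccr2, Tnip3, Cd209a, Retnla, Napsa and Fcrls), 1 higher in F4/80hi Mϕ and 11 were not called. These were 36.8% and 5.26% of the tested members, against 0.698% and 0.597% of all tested genes. At an unadjusted p under 0.05, 15 of the 19 were higher in F4/80lo Mϕ, against 10.1% of all tested genes. The median difference was 1.74, and 2.10, 2.96 and 0.51 within pairs 1, 2 and 3. With numbers 1 and 2 alone and no block, 8 were called higher in F4/80lo Mϕ and 0 higher in F4/80hi Mϕ. Cd209a, Fcrls and Itgax passed the filter through F4/80lo Mϕ alone.

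Cd209a, a C-type lectin gene of monocyte-derived cells (chr8:3743397-3748984, minus strand), had 84, 98 and 5 reads in F4/80lo and 1, 1 and 0 reads in F4/80hi Mϕ. Its difference of 4.16 ± 0.82 (adjusted p = 0.0312, limma) depends on the pseudocount, since F4/80hi Mϕ lay under the 3-read limit. Tnip3, an inhibitor of NF-κB signalling, stood at 129, 167 and 58.2 CPM in F4/80lo and 9.44, 6.77 and 29.6 CPM in F4/80hi Mϕ, without overlap (difference 3.01 ± 0.51, adjusted p = 0.0166, limma). Napsa, an aspartic protease gene, stood at 64.8, 103 and 34.8 CPM and 12.1, 0 and 15.3 CPM, also without overlap (difference 3.39 ± 0.76, adjusted p = 0.0451, limma). Limma voom with the block did not call Napsa (adjusted p = 0.0545). Without number 2 the Napsa difference was 1.73 with the block, and without F4/80hi number 2 alone it was 2.09 without a block.

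Retnla, which encodes the secreted protein RELMα and responds to IL-4 receptor signals (chr16:48842551-48844461, plus strand), stood at 1735, 3906 and 8.61 CPM in F4/80lo and 403, 503 and 7.67 CPM in F4/80hi Mϕ. It was abundant in numbers 1 and 2 of both subpopulations and below 10 CPM in both number 3 libraries. Its difference was 1.74 ± 0.38 with the block (adjusted p = 0.0397, limma) and took the opposite sign, -0.15, when F4/80hi number 3 alone was left out of the fit without a block, in which leaving out F4/80lo number 3 gave 4.45. With the block and without number 2 it was 1.13. DESeq2 with the block did not call it (adjusted p = 0.123). In numbers 1 and 2 alone, without a block, Retnla differed by 2.54 (adjusted p = 0.0133, limma). Fcrls, a scavenger-like Fc receptor family gene, stood at 81.6, 208 and 1.03 CPM and 8.09, 6.77 and 0 CPM (difference 2.98 ± 0.68, adjusted p = 0.0451, limma), with differences of 1.64 without F4/80lo number 2 and 5.02 without F4/80lo number 3 in the fit without a block.

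The Ly6c2 and Plac8 transcripts of blood monocytes were not called. Ly6c2 stood at 25.7, 22.1 and 232 CPM in F4/80lo and 4.04, 2.71 and 387 CPM in F4/80hi Mϕ (adjusted p = 0.189, limma), and Plac8 at 35.8, 9.83 and 233 CPM and 5.39, 2.71 and 288 CPM (adjusted p = 0.201, limma). Both were higher in F4/80lo Mϕ in pairs 1 and 2 and higher in F4/80hi Mϕ in pair 3, and edgeR and DESeq2 without a block gave a fitted difference of the opposite sign.

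**Figure D3:**
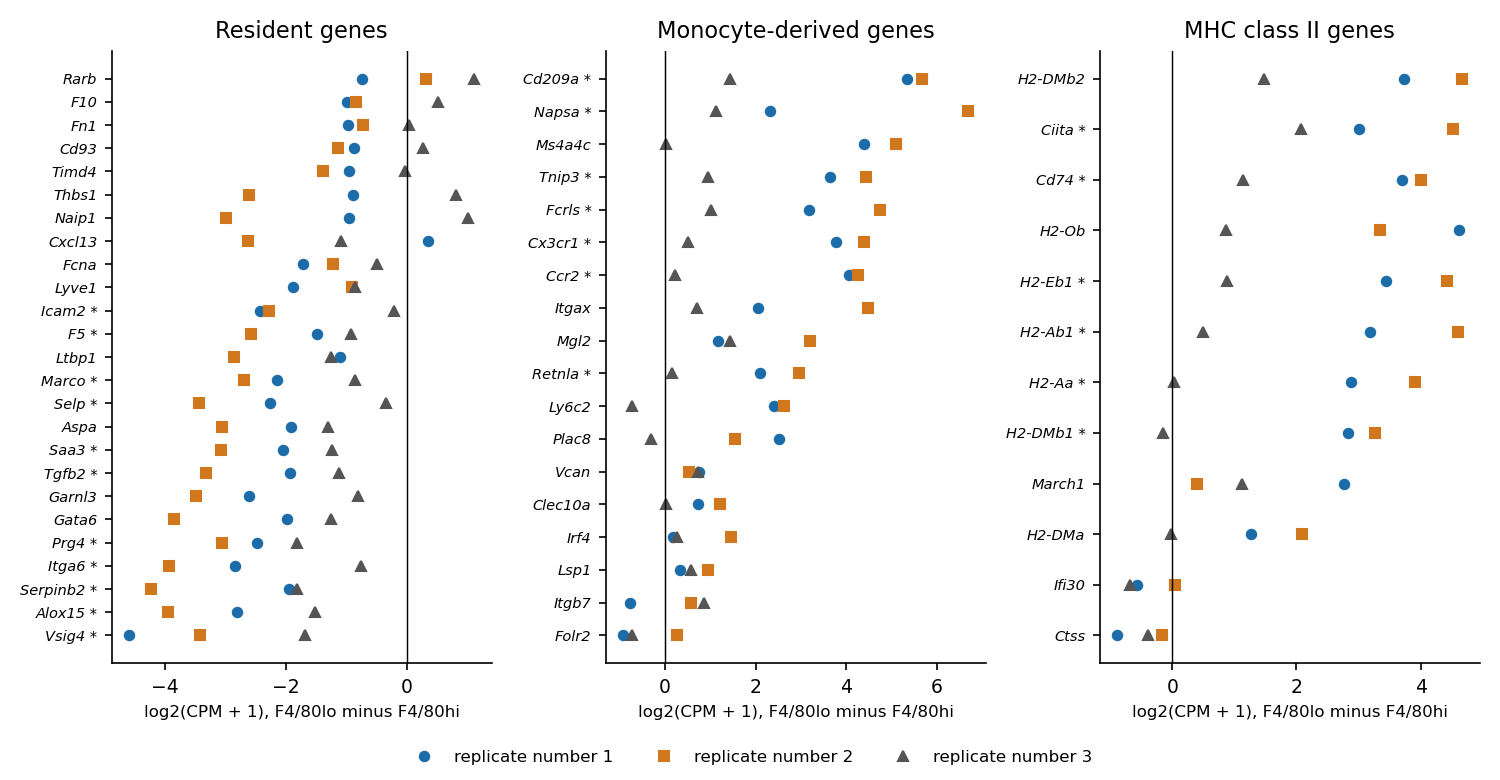
Difference in log2(CPM + 1), F4/80lo minus F4/80hi Mϕ, within each replicate number for the tested genes of 3 lists that are reported here, ordered by the mean of the 3 pairs. An asterisk marks a gene called with the replicate block. Resident genes lie mostly left of 0 and monocyte-derived and MHC class II genes mostly right of 0, with pair 3 (grey triangles) closest to 0 for most genes.

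The MHC class II genes present peptides from engulfed material to CD4+ T cells. They are transcribed under the control of CIITA, a co-activator without DNA binding of its own, which is held at their promoters by factors on the conserved X and Y boxes. The promoters of H2-Eb1, H2-Aa and H2-DMb1, 3 of the class II genes called below, are shown because the shared Y box can be seen in each. The stretches run from 150 bases before to 20 bases after the RefSeq transcription start, 5′ to 3′ on the strand of the gene, with the Y box core TGATTGG in capitals (RefSeq, GRCm38.p6).
H2-Eb1, chr17:34305717-34305886, plus strand: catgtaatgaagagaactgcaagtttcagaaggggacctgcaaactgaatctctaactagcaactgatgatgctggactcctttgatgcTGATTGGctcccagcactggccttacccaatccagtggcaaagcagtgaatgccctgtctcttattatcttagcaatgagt
H2-Aa, chr17:34287804-34287973, minus strand: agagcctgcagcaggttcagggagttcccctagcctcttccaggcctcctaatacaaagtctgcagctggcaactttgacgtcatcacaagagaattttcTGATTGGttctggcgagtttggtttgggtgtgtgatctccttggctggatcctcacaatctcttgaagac
H2-DMb1, chr17:34153041-34153210, plus strand: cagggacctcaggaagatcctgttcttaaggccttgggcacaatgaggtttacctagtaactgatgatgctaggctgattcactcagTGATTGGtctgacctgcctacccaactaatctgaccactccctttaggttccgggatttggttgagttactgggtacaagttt
The core begins 61, 50 and 63 bases before the start in H2-Eb1, H2-Aa and H2-DMb1. TGATTGG was searched on both strands over windows of 300 bases, from 250 before to 50 after the start. It was present in 7 of the 10 class II list members with a promoter among those searched, and in 7.82% of the 32851 promoters searched. Promoters of a chromosome not reported here entered neither count. A match describes the letters in the window and no binding was measured.

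MHC class II was part of the F4/80lo gate, so the transcript levels of the pathway check the sort. Of 14 listed genes of class II presentation, 12 were tested, 6 were called higher in F4/80lo Mϕ (Cd74, H2-Eb1, H2-Ab1, Ciita, H2-Aa and H2-DMb1), which is 50% against 0.698% of all tested genes, 0 were called higher in F4/80hi Mϕ and 6 were not called. At an unadjusted p under 0.05, 10 of the 12 were higher in F4/80lo Mϕ and 0 were lower, against 10.1% and 6.76% of all tested genes. With numbers 1 and 2 alone and no block, 5 were called. H2-DMb2 and H2-Ob, which were not called with the block, passed the filter through F4/80lo Mϕ alone. The median difference was 2.52, and 2.94, 3.63 and 0.68 within pairs 1, 2 and 3. Cd74, the invariant chain, stood at 2258, 2380.4 and 1281 CPM in F4/80lo and 173, 148 and 580.4 CPM in F4/80hi Mϕ (difference 2.95 ± 0.41, adjusted p = 0.00497, limma), and the groups did not overlap.

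H2-Eb1 stood at 1617, 2032 and 668 CPM in F4/80lo and 147, 93.5 and 363 CPM in F4/80hi Mϕ (difference 2.92 ± 0.45, adjusted p = 0.00984, limma). H2-Aa (chr17:34282744-34287823, minus strand) stood at 4423, 3923 and 703 CPM and 599.9, 260.2 and 687 CPM (difference 2.27 ± 0.49, adjusted p = 0.0394, limma). Both were separated widely in numbers 1 and 2. In number 3 the difference was 0.88 for H2-Eb1 and 0.03 for H2-Aa, so that the groups of H2-Aa did not overlap but nearly met, and without number 2 the H2-Aa difference was 1.46 with the block. Ciita, the co-activator gene, stood at 17.9, 22.1 and 63.4 CPM in F4/80lo and 1.35, 0 and 14.2 CPM in F4/80hi Mϕ (adjusted p = 0.0325, limma) and, unlike the structural genes, was highest in number 3 of each subpopulation, with F4/80hi numbers 1 and 2 under the 3-read limit.

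H2-DMb1, part of the peptide exchange factor H2-DM, stood at 489, 582 and 173 CPM in F4/80lo and 67.4, 59.6 and 193 CPM in F4/80hi Mϕ (adjusted p = 0.0459, limma), and pair 3 went the other way, by -0.16. Its difference was 1.98 ± 0.45, and 3.06 with the block and without number 3. DESeq2 with the block did not call H2-Ab1 or H2-DMb1 (adjusted p = 0.0732 and 0.178). Its partner H2-DMa stood at 398, 355 and 133 CPM and 164, 82.7 and 135 CPM and was not called (adjusted p = 0.0949, limma). In numbers 1 and 2 alone, without a block, Cd74, H2-Eb1 and H2-DMb1 differed by 3.86, 3.95 and 3.06 (adjusted p = 0.000257, 0.000257 and 0.000599, limma). Ctss and Ifi30, a protease and a thiol reductase of the class II pathway that are not class II genes, had adjusted p of 0.496 and 0.442 (limma) and differences of -0.48 and -0.40.

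Transcripts of dendritic cells, which the gating set apart, were present at low levels, and their part in the class II values was not tested. The summed level of all 15 listed markers was 42.4 to 393 CPM in F4/80lo and 8.09 to 36.1 CPM in F4/80hi Mϕ. Of these, 8 passed the filter on low values, 6 of them through F4/80lo Mϕ alone, so that no direction is read from the list. Cd209a, the 1 marker called, is also a member of the monocyte-derived list. Siglech had 0 reads in all 6 libraries. Flt3, the defining growth factor receptor of dendritic cells, had 18, 20 and 4 reads in F4/80lo and 0, 0 and 0 reads in F4/80hi Mϕ (adjusted p = 0.0889, limma). Batf3, a transcription factor of conventional dendritic cells, stood at 50.3, 63.9 and 24.5 CPM and 2.70, 0 and 20.8 CPM (adjusted p = 0.0579, limma), and was called in numbers 1 and 2 alone (difference 4.98, adjusted p = 0.0157, limma without a block).

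By size, the 12 genes with the largest differences among those called, without overlap and with a mean of at least 20 CPM, were taken in each direction. Higher in F4/80lo Mϕ were Cd209a, Napsa, Sorl1, Trerf1, Grk3, Fgd2, Tnip3, Cd74, H2-Eb1, Cx3cr1, H2-Ab1 and Arl10. Of those higher in F4/80hi Mϕ, 11 are reported here, Saa3, Adgre1, Gsto1, Rab32, Txn1, Pla2g16, Mdh1, Sec61b, Rnaset2a, Uqcrb and Hpse. The differences among the former ran from 2.48 to 4.16 and among the latter from -2.12 to -1.10. Cd209a, with the 4.16, passed the filter through F4/80lo Mϕ alone and lay under the 3-read limit in F4/80hi Mϕ. Its size and rank therefore follow in part from the filter and the pseudocount, and its lack of overlap is not beyond counting error. The gate genes H2-Eb1, H2-Ab1 and Adgre1 had been used to choose the cells, so their differences check the sort. Hpse differed by -0.72 without F4/80hi number 1 in the fit without a block.

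Grk3, a kinase that desensitises G protein-coupled receptors, stood at 129.7, 189 and 47.9 CPM in F4/80lo and 9.44, 10.8 and 14.2 CPM in F4/80hi Mϕ (difference 3.11 ± 0.43, adjusted p = 0.00497, limma). Fgd2, a guanine nucleotide exchange factor for CDC42, stood at 121, 166 and 209 CPM and 2.70, 21.7 and 88.7 CPM (difference 3.05 ± 0.50, adjusted p = 0.0136, limma, and 1.87 without F4/80hi number 1 and without a block). Sorl1, a sorting receptor, was even across F4/80lo Mϕ at 38.0, 35.6 and 33.8 CPM and stood at 2.70, 0 and 14.2 CPM in F4/80hi Mϕ (adjusted p = 0.0364, limma). Limma voom with the block did not call Sorl1 or Arl10 (adjusted p = 0.0819 and 0.0590). In Grk3, Fgd2 and Sorl1 the highest F4/80hi value was that of number 3.

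Among those higher in F4/80hi Mϕ, Txn1 (thioredoxin) stood at 701, 309.5 and 389 CPM in F4/80lo and 1642, 908 and 1209 CPM in F4/80hi Mϕ (difference -1.47 ± 0.24, adjusted p = 0.0136, limma). The malate dehydrogenase gene Mdh1 and the respiratory complex III gene Uqcrb differed by -1.20 ± 0.24 and -1.12 ± 0.24 (adjusted p = 0.0325 and 0.0397, limma). Gsto1, a glutathione transferase, stood at 51.4, 56.5 and 21.0 CPM and 209, 137 and 56.9 CPM (adjusted p = 0.0219, limma). The number 3 pair did not stand apart in these genes, with pair differences of -1.23, -1.55 and -1.63 for Txn1, -2.00, -1.26 and -1.40 for Gsto1 and -1.43, -0.87 and -1.30 for Mdh1.

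Slpi, a secreted inhibitor of neutrophil elastase, was chosen after its values were seen, as 1 of the 3 genes with the smallest p beside Pf4 and Prg4. It stood at 704, 493 and 16.9 CPM in F4/80lo and 7423, 2650.3 and 63.5 CPM in F4/80hi Mϕ (difference -2.56 ± 0.28, adjusted p = 0.000522, limma), and without a block the difference was -0.86 without F4/80lo number 3 and -4.58 without F4/80hi number 3. Igf1 (insulin-like growth factor 1), Spp1 (osteopontin) and Gpnmb, a transmembrane glycoprotein, were also chosen after their values were seen. They differed by -1.73 ± 0.32, -1.70 ± 0.36 and -1.84 ± 0.38, with higher values in F4/80hi Mϕ in every pair (adjusted p = 0.0219, 0.0364 and 0.0326, limma).

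Of the macrophage transcription factors, all 36 listed were tested and 1 was called, Nfkb1, a subunit of NF-κB, higher in F4/80lo Mϕ (2.78%, against 0.698% of all tested genes). Unadjusted p-values under 0.05 were found for 10 higher in F4/80lo and 3 higher in F4/80hi Mϕ, where 10.1% and 6.76% of all tested genes had one. Their median was 0.225, with 24 of 36 above 0. Nfkb1 stood at 268, 264 and 290.3 CPM in F4/80lo and 86.3, 114 and 163 CPM in F4/80hi Mϕ, without overlap and with a steady level in F4/80lo Mϕ (difference 1.22 ± 0.24, adjusted p = 0.0322, limma). Irf5, an activator of inflammatory genes, stood at 231, 232 and 209 CPM and 83.6, 107 and 140.2 CPM (adjusted p = 0.0554, limma), and with the block it was called by edgeR, DESeq2 and limma voom (adjusted p = 0.0460, 0.0432 and 0.0217). The lineage factors Spi1 and Cebpa differed by 0.06 ± 0.28 and 0.01 ± 0.27 (adjusted p = 0.948 and 0.990, limma).

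Of 23 chemokine receptors, 7 were tested and 2 were called, Ccr2 and Cx3cr1, both higher in F4/80lo Mϕ (28.6%, against 0.698% of all tested genes). Of 36 ligands, 20 were tested, 1 was called higher in F4/80hi Mϕ (5%, against 0.597%) and 0 higher in F4/80lo Mϕ. The unadjusted p was under 0.05 for 2 receptors and 1 ligand higher in F4/80lo and for 1 receptor and 2 ligands higher in F4/80hi Mϕ, where 10.1% and 6.76% of all tested genes had one. For the 20 ligands these counts are near the shares over all genes. The called ligand was Pf4 (CXCL4, chr5:90772435-90773383, plus strand), at 428, 297 and 16.5 CPM in F4/80lo and 2455, 1252 and 76.7 CPM in F4/80hi Mϕ (difference -2.24 ± 0.23, adjusted p = 0.000522, limma). The pair differences of Pf4 were -2.52, -2.07 and -2.15, so that number 3, with the lowest levels, showed a difference of the same size. Leaving out F4/80lo number 3 or F4/80hi number 3 from the fit without a block gave -0.78 or -3.73.

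Among 23 leukocyte integrins and adhesion molecules, 18 were tested, 4 were called higher in F4/80hi Mϕ (among them Itga6, Selp and Icam2, described above) and 0 higher in F4/80lo Mϕ. The 4 were 22.2% of the tested members, against 0.597% of all tested genes. Before adjustment, 7 were higher in F4/80hi and 5 higher in F4/80lo Mϕ at p under 0.05, against 6.76% and 10.1% of all tested genes. The median difference was 0.14, on the F4/80lo side, and integrins such as Itgal (1.54 ± 0.45, adjusted p = 0.0982, limma) and Itgb2 (-0.67 ± 0.27, adjusted p = 0.221, limma) lay on either side of 0.

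The eicosanoid pathway bears on the treatment of the study, since mPGES-1 (Ptges) forms prostaglandin E2. Of 30 listed genes of eicosanoid synthesis and reception, 20 were tested, 1 was called higher in F4/80hi Mϕ (Alox15) and 1 higher in F4/80lo Mϕ (Ltb4r1), each 5% against 0.597% and 0.698% of all tested genes. Before adjustment, 3 were higher in F4/80hi and 2 higher in F4/80lo Mϕ at p under 0.05, against 6.76% and 10.1% of all tested genes, so that the F4/80lo count is at the share over all genes. The list had a median of -0.16. Ltb4r1, the high-affinity receptor of the chemoattractant leukotriene B4, stood at 105, 249 and 137 CPM in F4/80lo and 5.39, 20.3 and 118 CPM in F4/80hi Mϕ (difference 2.61 ± 0.52, adjusted p = 0.0325, limma). The groups overlapped only through F4/80hi number 3, and DESeq2 with the block did not call it (adjusted p = 0.101). Without a block and without F4/80hi number 1 the difference was 1.64. Ptges itself was below the filter on low values, with 7, 0 and 6 reads in F4/80lo and 1, 4 and 5 reads in F4/80hi Mϕ. Ptgs1 (cyclooxygenase 1) and the PGE2 receptor gene Ptger4 differed by -0.56 ± 0.36 and 0.67 ± 0.41 (adjusted p = 0.467 and 0.433, limma), and Ptgs2 had 2 reads in all 6 libraries.

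Of 18 listed genes of alternative activation, 14 were tested, 1 was called higher in F4/80lo Mϕ (Retnla) and 1 higher in F4/80hi Mϕ, each 7.14% against 0.698% and 0.597% of all tested genes. At an unadjusted p under 0.05, 7 were higher in F4/80lo and 1 higher in F4/80hi Mϕ, against 10.1% and 6.76% of all tested genes. Ear2 and Ccl22 passed the filter through F4/80lo Mϕ alone, so no direction is read from the list. The lectin gene Mgl2 stood at 80.5, 233 and 1.72 CPM and 35.1, 24.4 and 0 CPM (adjusted p = 0.0785, limma), and was called by edgeR and limma voom with the block (adjusted p = 0.0124 and 0.00330). The eosinophil-associated ribonuclease gene Ear2 had 42, 62 and 0 reads in F4/80lo and 0, 0 and 0 reads in F4/80hi Mϕ (adjusted p = 0.0869, limma). Ear2 was called by edgeR with the block (adjusted p = 0.00152) and in numbers 1 and 2 alone (adjusted p = 0.00610, limma without a block).

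Of 25 listed lipid handling genes, 22 were tested, 4 were called higher in F4/80hi Mϕ (Fabp4, Fabp5, Fabp7 and Cd5l) and 0 higher in F4/80lo Mϕ. The 4 were 18.2% of the tested members, against 0.597% of all tested genes. Before adjustment, 6 were higher in F4/80hi and 0 higher in F4/80lo Mϕ at p under 0.05, against 6.76% and 10.1% of all tested genes, while the median of the list was 0.02, with 11 on each side of 0. The fatty acid-binding protein gene Fabp4 stood at 132, 67.6 and 1.72 CPM in F4/80lo and 733, 317 and 4.38 CPM in F4/80hi Mϕ (difference -1.89 ± 0.33, adjusted p = 0.0219, limma). Cd5l, a secreted protein of tissue Mϕ, stood at 438, 776 and 17.9 CPM and 2721, 3765 and 24.1 CPM (difference -1.77 ± 0.34, adjusted p = 0.0263, limma). For both genes number 3 lay far below numbers 1 and 2 in either subpopulation. Without a block, Cd5l differed by -0.11 without F4/80lo number 3 and by -4.09 without F4/80hi number 3, and Fabp4 by -0.16 and -4.04. With the block, leaving out 1 number gave -2.44 to -1.31 for Cd5l and -2.33 to -1.57 for Fabp4. The fatty acid-binding protein genes Fabp7 and Fabp5 differed by -1.64 and -1.72, and without a block by -0.49 for Fabp7 without F4/80lo number 3, -3.07 without F4/80hi number 3 and -0.68 for Fabp5 without F4/80hi number 1.

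Of 24 efferocytosis genes, 20 were tested, with Axl, a receptor tyrosine kinase of the MerTK family, called higher in F4/80lo and Marco higher in F4/80hi Mϕ, each 5% against 0.698% and 0.597% of all tested genes. At an unadjusted p under 0.05, 3 were higher in F4/80lo and 7 higher in F4/80hi Mϕ, where 10.1% and 6.76% of all tested genes were. Axl stood at 97.3, 197 and 35.8 CPM in F4/80lo and 21.6, 33.9 and 26.3 CPM in F4/80hi Mϕ, without overlap (difference 1.69 ± 0.38, adjusted p = 0.0451, limma), and differed by 1.11 without F4/80lo number 2 and without a block. Of 19 complement genes, 16 were tested and 1 was called, Vsig4, higher in F4/80hi Mϕ (6.25%, against 0.597% of all tested genes). At an unadjusted p under 0.05, 5 were higher in F4/80hi and 1 higher in F4/80lo Mϕ, against 6.76% and 10.1%. Vsig4 passed the filter through F4/80hi Mϕ alone and Itgax through F4/80lo Mϕ alone, so the directions of both were set by the filter. Of 9 Fc receptor genes, 7 were tested and 1 was called, Fcrls, higher in F4/80lo Mϕ (14.3%, against 0.698% of all tested genes). At an unadjusted p under 0.05, 2 were higher in F4/80lo and 1 higher in F4/80hi Mϕ, against 10.1% and 6.76%. Fcrls passed the filter through F4/80lo Mϕ alone, so its direction was set by the filter. Of 27 pattern recognition receptors, 24 were tested and 0 were called by limma with the block, with 1 at an unadjusted p under 0.05 higher in F4/80lo and 6 higher in F4/80hi Mϕ, where the shares over all tested genes were 10.1% and 6.76%.

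Among 18 inflammatory cytokines, 6 were tested and Il1b was called higher in F4/80lo Mϕ (16.7%, against 0.698% of all tested genes), with 1 gene in each direction at an unadjusted p under 0.05, where 10.1% of all tested genes were higher in F4/80lo and 6.76% higher in F4/80hi Mϕ. Il1b had 37, 77 and 328 reads in F4/80lo and 0, 2 and 91 reads in F4/80hi Mϕ (difference 3.42 ± 0.72, adjusted p = 0.0364, limma), and edgeR with the same block did not call it (adjusted p = 0.0780), nor did limma voom (adjusted p = 0.291). On the CPM scale F4/80hi number 3 held 99.7 and F4/80lo number 3 held 113. F4/80lo numbers 1 and 2 lay below F4/80hi number 3, so that the groups overlapped. Without a block, Il1b differed by 2.02 without F4/80hi number 1 and 5.36 without F4/80hi number 3. Of 30 interferon-stimulated genes, 28 were tested and 1 was called (3.57%), with 4 at an unadjusted p under 0.05 higher in F4/80lo and 2 higher in F4/80hi Mϕ, counts near the shares over all genes. The called gene was Mx1, an antiviral GTPase, at 47.0, 56.5 and 81.6 CPM in F4/80lo and 10.8, 14.9 and 38.3 CPM in F4/80hi Mϕ (adjusted p = 0.0414, limma). With numbers 1 and 2 alone, 0 of the list were called by limma. Summed over the list, interferon-stimulated genes stood at 3865 and 3732 CPM in the number 3 libraries and at 988 to 1264 CPM in the other 4.

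Of 35 listed genes of DNA replication and mitosis, 34 were tested. Of these, 30 had a difference below 0, on the F4/80hi side, where the median over all tested genes was 0.07. Among the 30, 7 had an unadjusted p under 0.05, against 6.76% of all tested genes. None of the 4 others reached that p in the F4/80lo direction. Bub1 passed the filter through F4/80hi Mϕ alone, so its direction was set by the filter. The list had 1 called gene, against 0.597% of all tested genes higher in F4/80hi Mϕ, and 0 with numbers 1 and 2 alone. This gene was Tuba1b, a tubulin gene, at 317, 377 and 45.1 CPM in F4/80lo and 537, 679 and 143 CPM in F4/80hi Mϕ (difference -1.08 ± 0.25, adjusted p = 0.0451, limma), which differed by -0.10 without F4/80lo number 3 and -1.76 without F4/80hi number 3 in the fit without a block. The median difference was -0.52, and -0.72, -0.90 and -0.09 within pairs 1, 2 and 3. The summed level was 2304, 1668 and 409.5 CPM in F4/80lo and 3831, 3125 and 473 CPM in F4/80hi Mϕ. The mitotic kinase gene Cdk1 stood at 70.4, 60.2 and 1.03 CPM and 194, 77.2 and 6.57 CPM (adjusted p = 0.134, limma).

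**Figure D4:**
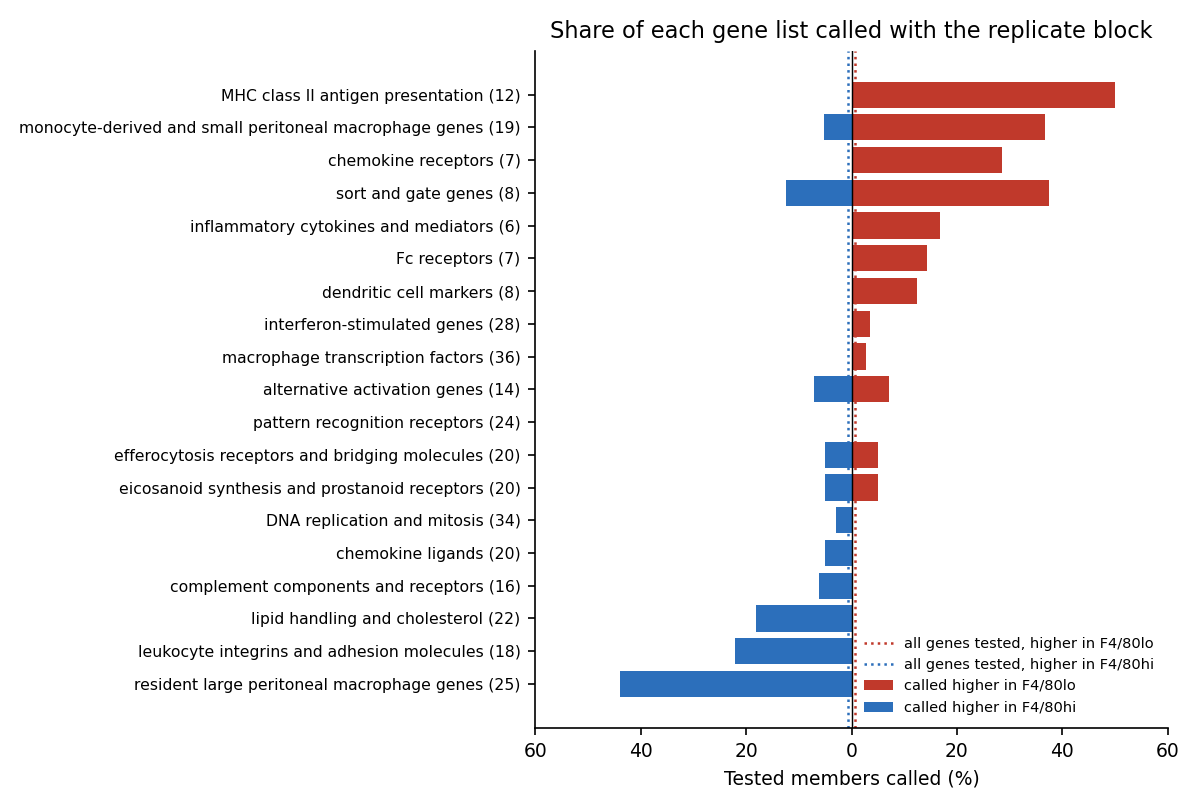
Share of the tested members of each gene list (number tested in brackets) that were called with the replicate block, higher in F4/80hi Mϕ to the left and higher in F4/80lo Mϕ to the right, in percent. Dotted lines give the shares over all tested genes, 0.597% and 0.698%. Resident genes reach 44% on the left and MHC class II genes 50% on the right, and lists with fewer than 6 tested genes are not drawn.

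Markers of other cells were low in both subpopulations. Neutrophil markers summed to 44.2 to 93.7 CPM in F4/80lo and 66.4 to 152 CPM in F4/80hi Mϕ, with 4 of 14 tested and S100a8 called higher in F4/80hi Mϕ (25%, against 0.597% of all tested genes), at 10.1, 7.37 and 25.8 CPM against 40.4, 25.7 and 85.4 CPM (adjusted p = 0.0462, limma) but not with numbers 1 and 2 alone (adjusted p = 0.270, limma). B cell markers summed to 73.7 to 266 CPM in F4/80lo and 70.5 to 84.9 CPM in F4/80hi Mϕ, with the highest sum in F4/80lo number 1. Of 15, 3 were tested and 0 were called by limma with the block, with 1 at an unadjusted p under 0.05. Ighm stood at 89.4, 19.7 and 14.8 CPM and 1.35, 0 and 28.5 CPM (adjusted p = 0.118, limma), and with numbers 1 and 2 alone it was called higher in F4/80lo Mϕ (difference 4.90, adjusted p = 0.0392, limma without a block). B cells also transcribe class II genes. The gating counted CD45+ cells without CD11b as lymphoid and took both Mϕ subpopulations from the CD11b+ cells, and the part of B cell transcripts in the class II values was not tested. T and NK cell markers summed to at most 43.6 CPM in F4/80lo and 108 CPM in F4/80hi Mϕ, with 2 of 15 tested and 0 called by limma with the block. Markers of eosinophils and mast cells summed to at most 14.7 CPM and mesothelial markers to at most 2.19 CPM, with 0 of 12 and 0 of 10 tested.

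The same contrast in CIII-treated mice used separate libraries and shared no sample with it. Limma without a block called 2 of 9725 genes between F4/80lo and F4/80hi Mϕ under CIII, with a smallest adjusted p of 0.0145. Of the 128 genes called under VEH, 127 were tested under CIII, where 64 of the 68 higher in F4/80lo and 57 of the 59 higher in F4/80hi Mϕ differed in the same direction. Over the 9396 genes tested under both treatments, 60.9% did. The median difference was 1.98 under VEH and 0.91 under CIII for the former genes, and -1.56 and -1.23 for the latter. The genes were chosen by their VEH difference, so its size here is set by that choice.

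The difference between the VEH and the CIII contrast was tested over all 12 libraries. Limma called 0 of 9840 genes, with 169 at an unadjusted p under 0.05, and with the replicate block 0, with 551 at an unadjusted p under 0.05. Of the 128 genes, 9 had an unadjusted p under 0.05. For Cx3cr1, F4/80lo and F4/80hi Mϕ of CIII-treated mice stood at 814, 757 and 340.3 CPM and 75.9, 64.0 and 196 CPM, a difference of 2.58 against 2.89 under VEH (p of the difference between contrasts 0.760, limma). Adgre1 differed by -1.65 under CIII and -1.72 under VEH, and Retnla by 0.51 and 1.74 (p of the difference between contrasts 0.883 and 0.684, limma).

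**Figure D5:**
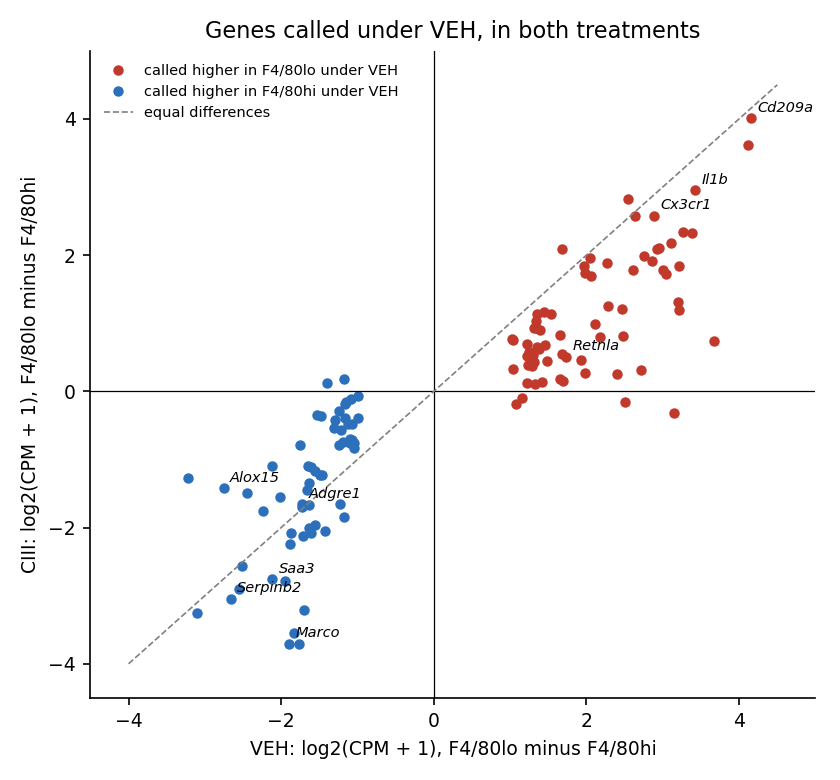
Difference in log2(CPM + 1), F4/80lo minus F4/80hi Mϕ, under VEH (horizontal) and under CIII (vertical) for the 127 genes called under VEH and tested under CIII. Red points were called higher in F4/80lo and blue points higher in F4/80hi Mϕ under VEH, and the dashed line marks equal differences. Of the points, 121 lie on the same side of 0 under both treatments.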

How the data were processed

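The authors prepared QuantSeq 3′ libraries with unique molecular identifiers from sorted Mϕ and ran the Bluebee pipeline. Reads were trimmed with Bbduk, mapped to GRCm38 with STAR, collapsed by identifier and counted per gene with HTSeq-count. The deposited values are a normalized signal, whole read counts divided by 1 DESeq2 size factor per library, set separately in the table of each subpopulation. In every library 100% of values, at a tolerance of 0.001, came out whole after division by the smallest step, so reads were recovered and the 6 VEH libraries were scaled together by TMM. Each table lists 47643 identifiers, of which 47224 matched GENCODE M21. Reads from overlapping or near-identical genes cannot be assigned with certainty at a 3′ end.

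Genes with a mean of at least 5 CPM were tested with limma 3.58.1 (trend, R 4.3.3, edgeR 4.0.16 for scaling) on log2(CPM + 1), two-sided, with Benjamini-Hochberg adjustment over all tested genes and a threshold of 0.05. The planned fit had no block. Since same-numbered libraries deviated together (correlations of 0.446, 0.422 and 0.716), calls in the text come from limma blocked on the replicate number. The pairing comes from these numbers and deviations alone.

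Genes were named if they were markers, gate genes or list members, or by size (12 per direction, taken from the blocked fit because the planned fit called none); others are said to be chosen after their values were seen. The rule, the members and the 24 lists were chosen with earlier results of these data known. Lists were described without a test, and some of their members are counted but not reported here by name. No libraries of a group lay within sampling noise of each other. EdgeR and DESeq2 1.42.0 on recovered reads were alternatives. Promoters came from RefSeq (GRCm38.p6). Figures were drawn with matplotlib.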

Additional observations from a re-analysis of the deposited data

How the results depend on the processing

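Without a block, the count stayed at 0 genes under the other pseudocounts, filters, scalings, limma voom (316 at an unadjusted p under 0.05), edgeR (367) and a test against a log2 difference of 1 (43). It was 12 with DESeq2 (9 higher in F4/80lo Mϕ), 5 with library quality weights, 84 with replicate numbers 1 and 2 only, 128 with the replicate block, 191 with edgeR and the replicate block, and 0 to 6 when 1 library was left out, the 6 without F4/80hi number 3. With the replicate block, fits chosen after seeing the data called 51 and 250 genes at pseudocounts of 0.5 and 5 CPM, 15 at a mean of at least 1 CPM, 322 with limma voom, 0 against a log2 difference of 1 (170 at an unadjusted p under 0.05), 84 without the block in numbers 1 and 2, and 0 to 556 without 1 replicate number, the 0 without number 1. The other alternatives of the blocked fit called 115 to 191 genes. Total reads in place of TMM split the calls into 113 higher in F4/80lo and 65 higher in F4/80hi Mϕ, and DESeq2 with the block into 44 and 120. The cause of these changes was not tested. Each fit without 1 replicate number keeps 2 pairs and 1 residual degree of freedom per gene.

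The alternatives were followed for 54 genes called with the replicate block, listed or size-ranked except for Slpi, which was chosen after its values were seen. Of the 54, 42 lost the call at a mean of at least 1 CPM, 24 at a pseudocount of 0.5 CPM and 16 in numbers 1 and 2 without the block. With the block, 7 lost it with DESeq2 (16 more had no adjusted p), 4 with voom (Arl10, Il1b, Napsa and Sorl1) and 1 with edgeR (Il1b). Leaving out 1 library moved the difference of 24 of them by over 1.5 times without the block, and leaving out 1 number moved 5 with it. Of 2504 alternative values of 66 named genes, 9 took the opposite sign. They were Ly6c2 with edgeR (-0.47), DESeq2 (-0.58) and voom with the block (-0.22), Plac8 with edgeR (-0.07) and DESeq2 (-0.18), Mertk without F4/80lo number 2 (0.06), without F4/80hi number 2 (0.10) and without both (0.22), and Retnla without F4/80hi number 3 (-0.15). Leaving out 1 library gave -0.20 to 0.10 for Mertk and -0.15 to 4.45 for Retnla. At 691665 to 1050715 reads in 5 libraries, genes such as Gata6 and Vsig4 rest on under 10 reads in 4 of the 6 libraries.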
